A study of Mus musculus with 13 samples.

Results

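Tcf7, Lef1, Bcl11b, Runx1 and Ets1 are 5 transcription factor genes that T cells use to take up and keep their identity, and they were followed here from the earliest gated thymocytes to T, NK and B cells outside the thymic lobes. They were found by their symbols in the gene lists of both split-pool experiments, where they are 5 of 57010 listed genes. Their levels did not choose any cell: cells were sorted into classes by UMI counts of other genes. Tcf7, Lef1 and Bcl11b were higher in CD4 T cells than in B cells, by 9.24-fold or more between medians, while Runx1 and Ets1 were read at high levels in B and NK cells too.

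TCF-1, the product of Tcf7, is switched on by Notch signals in the first thymic progenitors and opens chromatin at T cell genes. LEF-1, from Lef1, is its close relative, with the same HMG box, and both recruit either beta-catenin or repressors of the Groucho (Tle) family. Bcl11b is a zinc finger protein that closes off other fates when a progenitor commits to the T lineage. Runx1 binds DNA with its partner Cbfb, and Ets1 is a winged-helix factor that often binds beside it. All 5 take part in thymocyte development.

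The cells came from 2 experiments in which fixed cells were barcoded by rounds of splitting and pooling. The Parse WT kit took 20 samples in 9 sublibraries, of which 4 are thymic lobes, and the Parse Mini kit took 4 thymic lobes in 2 sublibraries. For each kit the thymi of 2 untreated female C57BL/6N mice aged 2 months were divided into lobes, so the 8 lobes come from 4 mice, and lobes of a mouse are technical replicates. The study's text calls the 16 other samples of the Parse WT kit non-thymic and unrelated to its comparison. For that kit as a whole the labels give thymus and spleen, mice both young and adult, and control and chronic stress, and they tie none of these to a single one of the 16 samples. The 4 thymic samples of the Parse WT kit were taken from the names in the cell table and are called WT lobes 1 to 4.

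The WT lobes held 41838 cells, the Mini lobes 20085 and the 16 other samples 86786. A lobe had between 28057164 and 124106974 UMIs. Cells from different sublibraries that carry the same 3 well barcodes made up 34.9% of the Parse WT cells and 13.54% of the Mini cells, and 0 cells shared a full barcode. Gates were set in UMIs per cell and used marker genes only, and 29.2% of the quality-filtered cells of the WT lobes and 30.7% of those of the Mini lobes entered a thymocyte stage. DN cells had Il2ra (CD25, the mark of early double-negative thymocytes) with no Cd4 or Cd8 UMI. Cycling cells had Mki67 or Top2a with Cd8. DP-R and DP-S were resting CD4 and CD8 double-positive cells, DP-R with the recombinase gene Rag1, DP-S with Tox, which rises at positive selection. CD4 SP and CD8 SP cells had 1 coreceptor and genes of mature cells that leave the thymus, among them Ccr7, S1pr1 and Klf2. The gates gave 347 DN, 11450 cycling, 3573 DP-R, 1330 DP-S, 375 CD4 SP and 341 CD8 SP cells over the 8 lobes.

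The classes were checked on 5 genes outside the gates. Dntt, the terminal transferase of antigen receptor joining, was at 486 CPM in DN, 730 in DP-R and 54.6 in CD4 SP cells of the WT lobes. CPM is the UMI count scaled to a total of 1000000 UMIs outside ribosomal RNA. In CD8 SP cells of these lobes Dntt was at 125 CPM. Over the 8 lobes it was higher there than in CD4 SP cells, by a log2 change of 1.45 with an SE of 0.31 (edgeR adjusted p = 0.000649). Bcl2, a survival gene, was at 1406.5 CPM in DN, 56.6 in DP-R, 624 in DP-S, 1936 in CD4 SP and 1599 in CD8 SP cells. Ptcra, which early thymocytes use for the pre-T cell receptor, was read at 20.4 CPM in DN and 6.66 in cycling cells and was too low to test. Cd22 was at 763 CPM in B cells and at most 20.7 in the stages, T and NK cells, and Eomes at 211 CPM in NK cells. The markers used in the gates were summed too, which describes the gates and is no check of the classes, since the gates fix this contrast. The 7 B cell markers summed to between 42.8 and 75.1 CPM in the stages against 10490 in B cells, and the 3 NK markers to at most 1.54 against 1693.

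All 5 genes lie on GRCm38 as annotated in GENCODE M21, on 5 different chromosomes. Tcf7 (ENSMUSG00000000782) runs over chromosome 11 from 52252371 to 52283014 on the minus strand, and Lef1 (ENSMUSG00000027985) over chromosome 3 from 131110471 to 131224356 on the plus strand. Bcl11b (ENSMUSG00000048251) spans chromosome 12 from 107910403 to 108003602 and Runx1 (ENSMUSG00000022952) chromosome 16 from 92601466 to 92826149, both on the minus strand. Ets1 (ENSMUSG00000032035) spans chromosome 9 from 32636221 to 32757820 on the plus strand. The sources used here do not state whether the counting used strand. The annotated antisense genes within Tcf7, Runx1 and Ets1 held few UMIs in the stage cells, 2434 for A630014C17Rik against 166330 for Tcf7, 89 for Gm26626 against 180587 for Runx1 and 256 for Gm27240 against 179111 for Ets1.

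RefSeq lists promoter windows for 4 of the 5 members. It lists 4 starts for Lef1, 2 each for Tcf7 and Runx1 and 1 for Bcl11b, and the outermost start of each gene was used and searched. The windows are shown for the members whose levels followed each other or went apart below. The windows are the bases before the start that lie outside the annotated gene, from the GRCm38.p6 table, 5′ to 3′ on the strand of the gene. Capitals mark a match to the core motif of TCF/LEF (CTTTGA), RUNX (TGNGGT) or ETS (GGAAGT) factors, searched on both strands, and no 2 matches overlap.
Lef1, chr3:131110047-131110296, plus strand: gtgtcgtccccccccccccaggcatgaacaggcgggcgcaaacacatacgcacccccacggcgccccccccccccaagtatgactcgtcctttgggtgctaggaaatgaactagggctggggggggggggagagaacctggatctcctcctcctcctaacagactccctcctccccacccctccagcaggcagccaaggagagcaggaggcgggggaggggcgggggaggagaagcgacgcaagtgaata
Bcl11b, chr12:108003603-108003664, minus strand: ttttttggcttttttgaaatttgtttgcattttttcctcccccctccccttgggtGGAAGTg
Runx1, chr16:92826150-92826324, minus strand: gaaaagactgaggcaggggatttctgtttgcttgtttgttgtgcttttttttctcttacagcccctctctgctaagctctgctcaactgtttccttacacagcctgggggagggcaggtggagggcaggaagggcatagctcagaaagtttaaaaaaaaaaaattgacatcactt
In the whole window of 250 bases Bcl11b held 1 ETS core and 1 TCF/LEF core, the latter inside the annotated gene, and the windows used for Lef1 and Runx1 held no match. Of 32851 windows of this length 13.8% hold the TCF/LEF core, 40.1% the RUNX core and 19.7% the ETS core. The Tcf7 window is not shown, since it has a frame open over 165 bases up to the start and may be coding. No data here measure binding or use of a promoter.

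The first comparison sets DN cells against cycling Cd8-positive cells. The DN gate put no limit on Mki67 or Top2a, so the DN class holds dividing cells too. Mki67 was at 512 CPM in DN and 1314 in cycling cells of the WT lobes, and Top2a at 440 and 1037.5. Tcf7 and Ets1 rose, Runx1 fell, and Lef1 and Bcl11b rose by less. Tcf7 lay between 626 and 912 CPM in DN cells of the 8 lobes, with a median of 725, and between 1447 and 1945 CPM in cycling cells, with a median of 1851. The lobes did not overlap, and all 8 rose. Cells of the 4 WT lobes in the B cell gate, which should lack Tcf7, read 407 to 912 CPM, a range that holds the 654 to 754 CPM of DN cells of those lobes, and the part of such signal in the DN level was not tested. Runx1 was at 3418 to 5492 CPM in DN cells (median 4258) and at 1628 to 2217 in cycling cells (median 2050), again with no overlap. Ets1 went from a median of 1145 CPM in DN cells (898 to 1362) to 1897 in cycling cells (1628 to 2094). In log2 fold change with its SE, Tcf7 rose by 1.30 ± 0.08 (edgeR adjusted p = 5.09e-23), Ets1 by 0.81 ± 0.06 (adjusted p = 1.74e-19), and Runx1 fell by 1.11 ± 0.08 (adjusted p = 3.21e-20). Lef1 rose by 0.53 ± 0.11 (adjusted p = 3.59e-05), higher in 6 of 8 lobes, and Bcl11b by 0.34 ± 0.07 (adjusted p = 1.78e-05), higher in 7 of 8. All 5 members passed the test, where 47.6% of the 6190 genes tested did. Lobes of a mouse are not independent, so all p-values between stages are too small. In the Mini lobes alone the changes of Lef1 (0.22, adjusted p = 0.203) and Bcl11b (0.22, adjusted p = 0.0731) did not pass. Cycling cells were deeper, with medians per lobe of 6588 to 9925 UMIs against 2423 to 7212 in DN cells, and with every cell thinned to 1000 UMIs Bcl11b no longer passed (0.18, adjusted p = 0.0722).

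**Figure D1:**
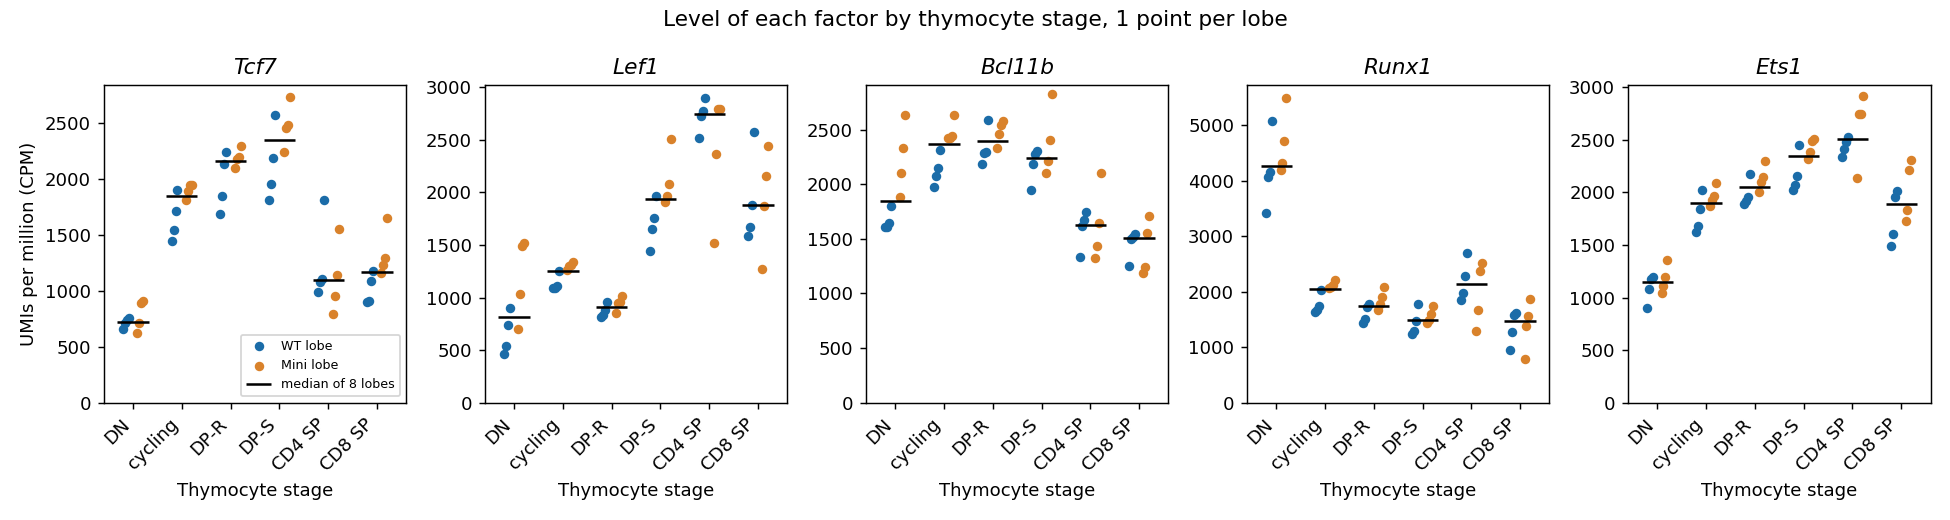
Level of the 5 factors (vertical axis, CPM from 0) in each gated thymocyte stage (horizontal axis), with 1 point for each of the 4 WT lobes and 4 Mini lobes and a line at the median of the 8. Tcf7 stands lowest in DN cells (median 725 CPM) and highest in DP-S cells (2346), while Runx1 stands highest in DN cells (4258).

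From cycling cells to resting DP-R cells the changes were smaller. Lef1 was the member whose fall passed the test, from 1089 to 1333 CPM in cycling cells (median 1256) to 819 to 1010 in DP-R cells (median 914). No lobe of one stage reached those of the other. The fall was 0.41 ± 0.09 on the log2 scale (edgeR adjusted p = 5.84e-05). Tcf7 rose by 0.24 ± 0.06 (adjusted p = 0.000603) and Ets1 by 0.15 ± 0.05 (adjusted p = 0.00775), each in 8 of 8 lobes with overlapping ranges. Bcl11b (0.08 ± 0.06, adjusted p = 0.246) and Runx1 (-0.16 ± 0.07, adjusted p = 0.0662) did not pass, although Runx1 was lower in 8 of 8 lobes and passed under other settings. The count of 3 members called stands against 61.7% of all genes tested. The Ets1 change did not pass in the Mini lobes alone (0.14, adjusted p = 0.11).

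Between DP-R and DP-S, the step of positive selection, Lef1 was the member that changed most. It was at 1440 to 2504 CPM in DP-S cells, with a median of 1938, against a median of 914 in DP-R cells. Every DP-S sum lay above every DP-R sum. The rise was 1.04 ± 0.10 (edgeR adjusted p = 2.42e-14), with 0.93 in the WT lobes and 1.15 in the Mini lobes. Tcf7 reached its highest median here, 2346 CPM (1808 to 2734), but the step from DP-R was 0.12 ± 0.07 (adjusted p = 0.188) although 8 of 8 lobes were higher. Bcl11b was at 1949 to 2826 CPM with a change of -0.10 ± 0.06 (adjusted p = 0.3). Runx1 (-0.23 ± 0.08, adjusted p = 0.0351) and Ets1 (0.14 ± 0.05, adjusted p = 0.0445) passed narrowly. The Runx1 call was lost in each kit alone and without WT lobe 2 or 4 or Mini lobe 1-B or 2-A, and the Ets1 call in each kit alone and without any of 7 of the 8 lobes, WT lobe 4 being the exception. Of all genes tested 22.1% were called.

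CD4 SP cells differed from DP-S cells in 4 of 5 members, against 32.8% of all genes tested. Tcf7 and Bcl11b were lower, Lef1 and Runx1 higher. Tcf7 ran from 792 to 1810 CPM in CD4 SP cells, with a median of 1095, and was lower than in DP-S cells of the same lobe in 8 of 8 lobes. The highest value, 1810 CPM in WT lobe 3, reached into the DP-S range. The fall was 0.97 ± 0.08 on the log2 scale (edgeR adjusted p = 1.22e-16). Bcl11b lay between 1327 and 2100 CPM (median 1631) and fell by 0.55 ± 0.07 (adjusted p = 3.8e-09), in 8 of 8 lobes. Runx1 ran from 1287 to 2703 CPM (median 2139) and rose by 0.46 ± 0.09 (adjusted p = 2.58e-05), in 7 of 8 lobes. Lef1, the highest of its medians at 2749 CPM (1523 to 2899), rose by 0.40 ± 0.10 (adjusted p = 0.00119), also in 7 of 8 lobes. The Lef1 rise was 0.64 in the WT lobes and 0.10 in the Mini lobes, a difference of -0.54 with an unadjusted p of 0.0049 and an edgeR adjusted p of 0.576. In a fit of the Mini lobes alone it did not pass (0.14, adjusted p = 0.528). Ets1 was at 2141 to 2921 CPM, a change of 0.09 ± 0.06 (adjusted p = 0.266). The Ets1 result depended on the processing. It passed with raised marker minimums and with the DESeq2 test, and turned direction with no filter on low counts.

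CD8 SP cells were lower than DP-S cells in Tcf7, Bcl11b and Ets1, and 33.4% of all genes tested were called. Tcf7 lay between 900 and 1648 CPM (median 1165), below every DP-S sum, and fell by 1.08 ± 0.08 (edgeR adjusted p = 3.48e-18). Bcl11b was at 1185 to 1710 CPM (median 1507), also without overlap, and fell by 0.71 ± 0.08 (adjusted p = 1.86e-12). The same pair of genes thus fell in both single-positive gates. Ets1 ran from 1491 to 2312 CPM (median 1893) and fell by 0.36 ± 0.06 (adjusted p = 1.01e-06), in 8 of 8 lobes. Lef1 (0.02 ± 0.11, adjusted p = 0.928) and Runx1 (-0.15 ± 0.10, adjusted p = 0.239) did not pass. Runx1 passed with marker minimums raised by 1 (-0.64, adjusted p = 0.000894) and with no filter on low counts (-0.27, adjusted p = 0.000239). CD8 SP cells had 1272 to 2572 CPM of Lef1 and 780 to 1876 of Runx1.

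Set against each other, CD8 SP cells were lower than CD4 SP cells in 3 members, where 6.24% of all genes tested were called in either direction. Ets1 was lower by 0.45 ± 0.06 on the log2 scale (edgeR adjusted p = 3.19e-07), in 8 of 8 lobes. Runx1 was lower in 7 of 8 lobes (-0.61 ± 0.10, adjusted p = 9.21e-06), and in the Mini lobes alone the change was -0.50 (adjusted p = 0.0506). Lef1 was lower in 6 of 8 lobes (-0.39 ± 0.11, adjusted p = 0.0225). This Lef1 call was lost in the Mini lobes alone, with the DESeq2 test (-0.37, adjusted p = 0.092) and without Mini lobe 1-A or WT lobe 2, 3 or 4. Tcf7 (-0.11 ± 0.10, adjusted p = 0.625) and Bcl11b (-0.16 ± 0.08, adjusted p = 0.297) did not pass, and the sums rest on 22 to 78 cells each. Runx3, the CD8-lineage relative of Runx1, was at 478 CPM in CD8 SP and 88.7 in CD4 SP cells of the WT lobes and higher in CD8 SP cells by 2.62 ± 0.23 (adjusted p = 1.24e-14).

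**Figure D2:**
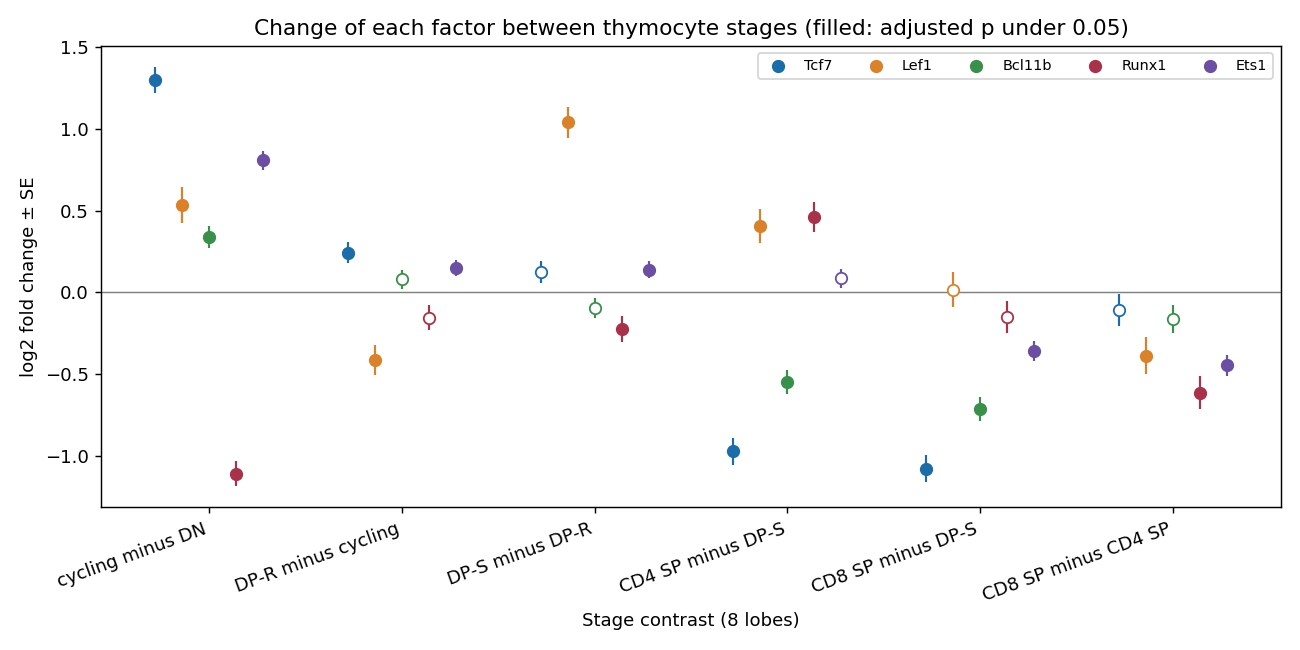
Log2 fold change of each factor (vertical axis, points with SE bars) for the 6 stage contrasts (horizontal axis), fitted over the 8 lobes. Filled points passed an adjusted p of 0.05, and the largest rise is that of Tcf7 from DN to cycling cells (1.30), the largest fall that of Runx1 in the same step (-1.11).

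The kits were separate experiments on separate mice. For none of the 30 pairs of member and contrast did the change differ between kits after adjustment, with a lowest adjusted p of 0.501 (edgeR interaction test). Of all 6190 genes tested, 2 were called in cycling minus DN and 0 in every other contrast. With so few genes called, the lack of a call does not show that the members changed alike in both kits. Unadjusted, 4 of the 30 had p under 0.05 in this test. The lowest unadjusted values were those of Lef1, in CD4 SP minus DP-S and in cycling minus DN, where the change was 0.79 in the WT lobes and 0.25 in the Mini lobes (unadjusted p = 0.00792). In DN cells Lef1 lay between 459 and 899 CPM in the WT lobes and between 699 and 1516 in the Mini lobes.

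The partners of the 5 factors moved in both directions. Of 22 listed T-lineage partners 18 passed the filter on low counts, and Id2, Id3, Tle1 and Tcf7l1 did not. From DN to cycling cells 7 rose and 5 fell, with a median log2 change of 0.14 against 0.07 over all genes, of which 47.6% were called. Satb1, a chromatin organiser of thymocytes, rose by 1.95 ± 0.07, and Notch1, the receptor that starts the T program, fell by 2.23 ± 0.09. From cycling to DP-R cells 4 rose and 7 fell (median -0.04), where 61.7% of all genes were called, and from DP-R to DP-S cells 6 rose and 3 fell (median 0.17), where 22.1% were. Gata3, which drives the CD4 lineage, rose by 1.26 ± 0.12 in the latter step together with Lef1, and the corepressor gene Tle4 by 0.77 ± 0.09. Into the CD4 SP gate 4 rose and 8 fell (median -0.25, with 32.8% of all genes called), and into the CD8 SP gate 4 rose and 9 fell (median -0.22, with 33.4% called). Myb fell by 2.49 ± 0.13 and Tcf12, an E protein, by 1.26 ± 0.07 in CD4 SP cells, alongside Tcf7 and Bcl11b. Between CD8 SP and CD4 SP cells 4 were higher and 3 lower (median 0.04, with 6.24% of all genes called). The binding partner of Runx1, Cbfb, rose by 0.34 from DN to cycling cells while Runx1 fell, and fell by 0.35 ± 0.07 from cycling to DP-R cells (edgeR adjusted p = 7.9e-06). It did not pass in the other contrasts.

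Of 7 listed progenitor factors, which commitment shuts off, Erg and Bcl11a passed the filter on low counts, and both passed from DN to cycling cells, where Erg fell by 5.51 ± 0.24 (edgeR adjusted p = 5.44e-31) and Bcl11a fell by 3.41 ± 0.35 (adjusted p = 2.02e-13), where 47.6% of all genes were called. Erg was at 221 CPM in DN cells and 4.33 in cycling cells of the WT lobes, and Bcl11a, which B cells also use, at 86.8 and 7.88. In the other stages of these lobes Erg was at most 29.2 CPM and Bcl11a at most 47.8. The filter may thus have kept both genes by their DN sums, which would favour genes that fall from DN cells. Their falls are therefore no test of the whole list. In the later steps no fall passed the test. Bcl11a rose by 2.21 ± 0.54 into the CD4 SP gate (edgeR adjusted p = 0.000714) and Erg by 3.00 ± 0.68 into the CD8 SP gate (adjusted p = 0.000258). They reached 47.8 and 29.2 CPM, where 32.8% and 33.4% of all genes were called. Spi1 (PU.1), Lmo2, Hhex, Lyl1 and Mef2c stayed under the filter, the highest of them in DN cells being Mef2c at 51.1 CPM.

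In the 16 other samples, levels were taken in every sample with at least 20 cells of a class, without a test. CD4 T cells (Cd3 and Cd4 UMIs) could be read in 11 samples, CD8 T cells in 11, NK cells in 5 and B cells in 16. Tcf7 was at 502 to 899 CPM in CD4 T cells (median 625), 227 to 821 in CD8 T cells (median 640), 147 to 230 in NK cells (median 180) and 16 to 91.8 in B cells (median 37.6). T, NK and B cells thus formed 3 tiers, although the lowest CD8 T sample, at 227, lay within the NK range. That sample had too few NK cells to read, and the 5 samples with NK cells all have names starting with YD. In those 5, CD8 T cells lay at 592 to 733 CPM, apart from NK cells. Bcl11b had only the upper tier, at 968 to 1308 CPM in CD4 T cells and 600 to 1203 in CD8 T cells, against 51.0 to 95.5 in NK cells and 20.9 to 130 in B cells. Lef1 ran from 344 to 2338 CPM in CD4 T cells (median 590) and from 365 to 2189 in CD8 T cells (median 1065), with 247 to 410 in NK cells and 16.9 to 188 in B cells. Its median in CD4 T cells lay at the edge of a gap, with no sample between 590 and 1523 CPM, and over the 10 samples that also had CD8 T cells it was 1056 CPM. As a ratio of the highest to the lowest sample, Lef1 varied more than any other member in CD4 T, CD8 T and B cells.

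Runx1 and Ets1 did not separate T from B cells in this way, although for Ets1 every CD4 T sample lay above every B cell sample. Runx1 was at 1219 to 2560 CPM in CD4 T cells (median 2183), 835 to 1298 in CD8 T cells (median 1005), 1854 to 2740 in NK cells (median 2496) and 824 to 1528 in B cells (median 1214). CD8 T cells were the lowest of the classes by median. Ets1 was at 1358 to 2128 CPM in CD4 T cells, 840 to 1924 in CD8 T cells, 1215 to 1618 in NK cells and 662 to 1321 in B cells. Myeloid cells, gated on Csf1r, Lyz2, Adgre1 and C1qa, had 692 to 2048 CPM of Runx1 and 95.5 to 306 of Ets1, and their medians of Tcf7, Lef1 and Bcl11b were 18.8, 23.9 and 27.6.

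**Figure D3:**
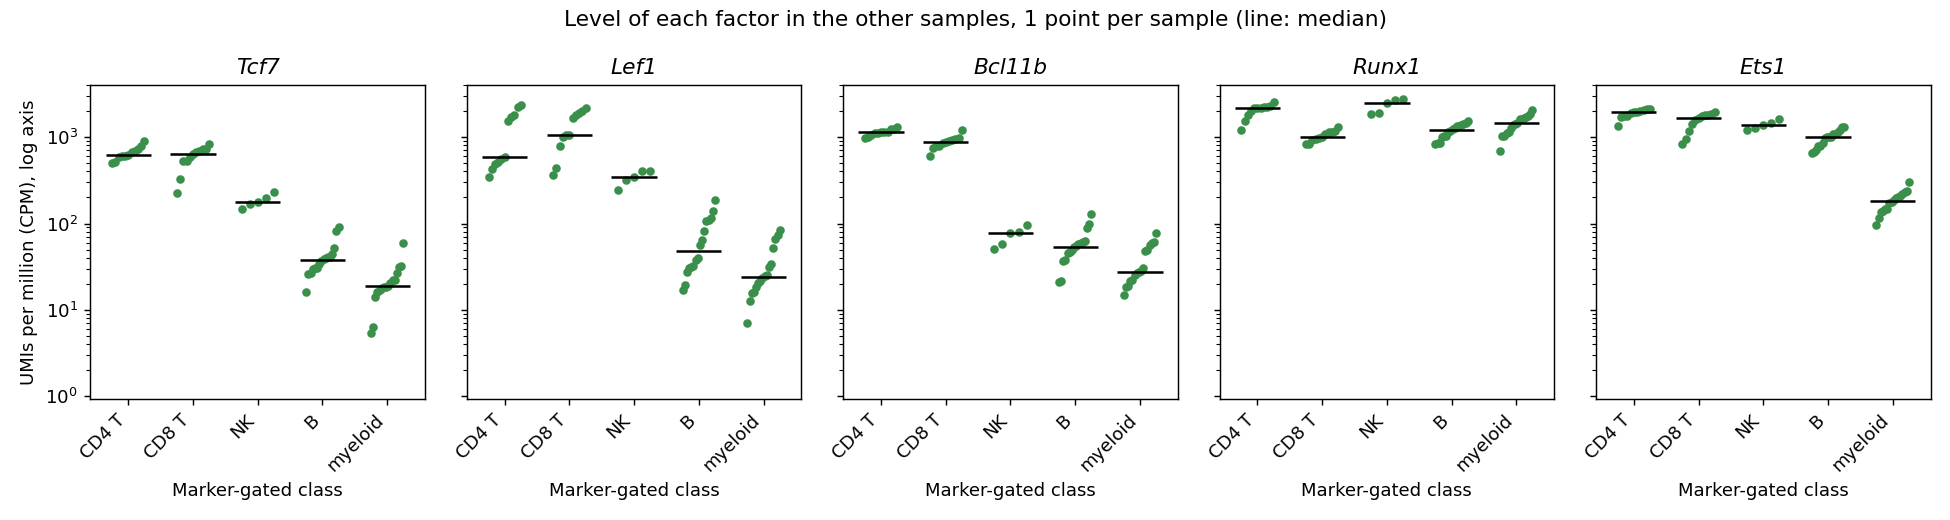
Level of the 5 factors (vertical axis, CPM on a log axis) in marker-gated classes of the other samples (horizontal axis), with 1 point per sample of at least 20 cells and a line at the median. Tcf7, Lef1 and Bcl11b drop from T cells to B and myeloid cells, while the median of Runx1 stays between 1005 and 2496 CPM in all 5 classes.

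Compared within samples, all 5 members were higher in CD4 T cells than in B cells in 11 of 11 samples. The ratio of medians was 17.1 for Tcf7, 9.24 for Lef1, 23.1 for Bcl11b, 1.63 for Runx1 and 1.78 for Ets1, the Lef1 ratio resting on the median beside the gap, and 24.6% of the genes read were on the same side in every sample. For CD8 T cells against B cells, Tcf7, Lef1, Bcl11b and Ets1 were higher in 11 of 11 samples, with 23.6% of genes on 1 side. Runx1 was the exception, lower in CD8 T cells in 9 of 11 samples (ratio 0.752). Between CD8 T and CD4 T cells no member was on the same side in all 10 samples, as 7.75% of the genes were. Runx1 (ratio of medians 0.452), Bcl11b (0.787) and Ets1 (0.885) were each lower in CD8 T cells in 9 of 10 samples. Runx1 and Ets1 were also lower in the CD8 SP than in the CD4 SP gate of the lobes. Tcf7 was lower in 6 of 10 samples and Lef1 in 4 of 10.

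NK cells were compared in the 5 samples that had enough of them. Against B cells, Tcf7 (ratio of medians 4.91), Lef1 (3.15), Runx1 (1.78) and Ets1 (1.21) were higher in 5 of 5 samples, with 42.5% of genes on 1 side. Bcl11b was higher in 4 of 5, at a median of 78.3 CPM against 49.1, and the ranges overlapped. Against CD8 T cells, Tcf7 (0.264), Lef1 (0.18), Bcl11b (0.0984) and Ets1 (0.789) were lower and Runx1 higher (2.68) in 5 of 5 samples, with 34.3% of genes on 1 side. NK cells thus held Runx1 above the CD8 T level, with the ranges of 1854 to 2740 and 835 to 1174 CPM apart, and Bcl11b near the B cell level.

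T cells with effector markers (Ccl5, Cxcr3, Il2rb) were too few for any sample to reach 20 cells, so their UMIs were pooled, with exact 95% Poisson intervals that cover counting error only. The 93 CD4 T cells of this kind had 357 CPM of Tcf7 (297 to 427) and 407 of Lef1 (342 to 481), and the 80 CD8 T cells 266 (209 to 334) and 453 (377 to 539). Over all gated T cells of these samples Tcf7 and Lef1 were 690 and 1603 CPM in CD4 T cells and 650 and 1683 in CD8 T cells. Bcl11b, Runx1 and Ets1 in effector-marker cells were between 0.848 and 1.56 times the level of all T cells of their class, whereas Tcf7 and Lef1 were between 0.254 and 0.518 times. Cells with these markers came from the samples in other shares than the rest. For example, they were 11 of 121 CD4 T cells in CVS_C_5 and 11 of 329 in YD_C_3. Lef1 in all CD4 T cells of these 2 samples was at 590 and 2338 CPM. The ratios, that of Lef1 above all, thus also carry differences between samples, and the size of that part was not tested. CD4 T cells with a UMI of Foxp3, the regulatory T cell factor, were read in 4 samples. They had 269 to 368 CPM of Tcf7 and 1012 to 1101 of Bcl11b, so Tcf7 lay below its range in all CD4 T cells.

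The CD4 SP and CD8 SP gates could also be applied to the other samples, and the levels are set side by side without a test, since these samples carry no label of tissue. In the CD4 SP gate Tcf7 was at 987 to 1810 CPM in the 4 WT lobes and 465 to 816 in 11 other samples, and Bcl11b at 1332 to 1741 and 846 to 1201. Ets1 was at 2336 to 2526 CPM in the lobes and 1380 to 2279 in the others. In these 3 members every WT lobe lay above every other sample. Lobes and other samples were apart in either direction for 8.46% of the genes read, 370 with the lobes above and 231 with the lobes below. The Mini lobes, from the other kit, lay at 792 to 1554 CPM of Tcf7, 1327 to 2100 of Bcl11b and 2141 to 2921 of Ets1, so that with them Tcf7 and Ets1 overlapped the other samples. Lef1 (2515 to 2899 and 451 to 2569 CPM) and Runx1 (1846 to 2703 and 1269 to 2507) overlapped. In the CD8 SP gate Tcf7 was at 900 to 1176 CPM in the lobes against 613 to 842 in 13 samples, and Bcl11b at 1251 to 1547 against 560 to 1049. Both were again apart, as were 7.90% of genes in either direction. Lef1, Runx1 and Ets1 overlapped there.

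**Figure D4:**
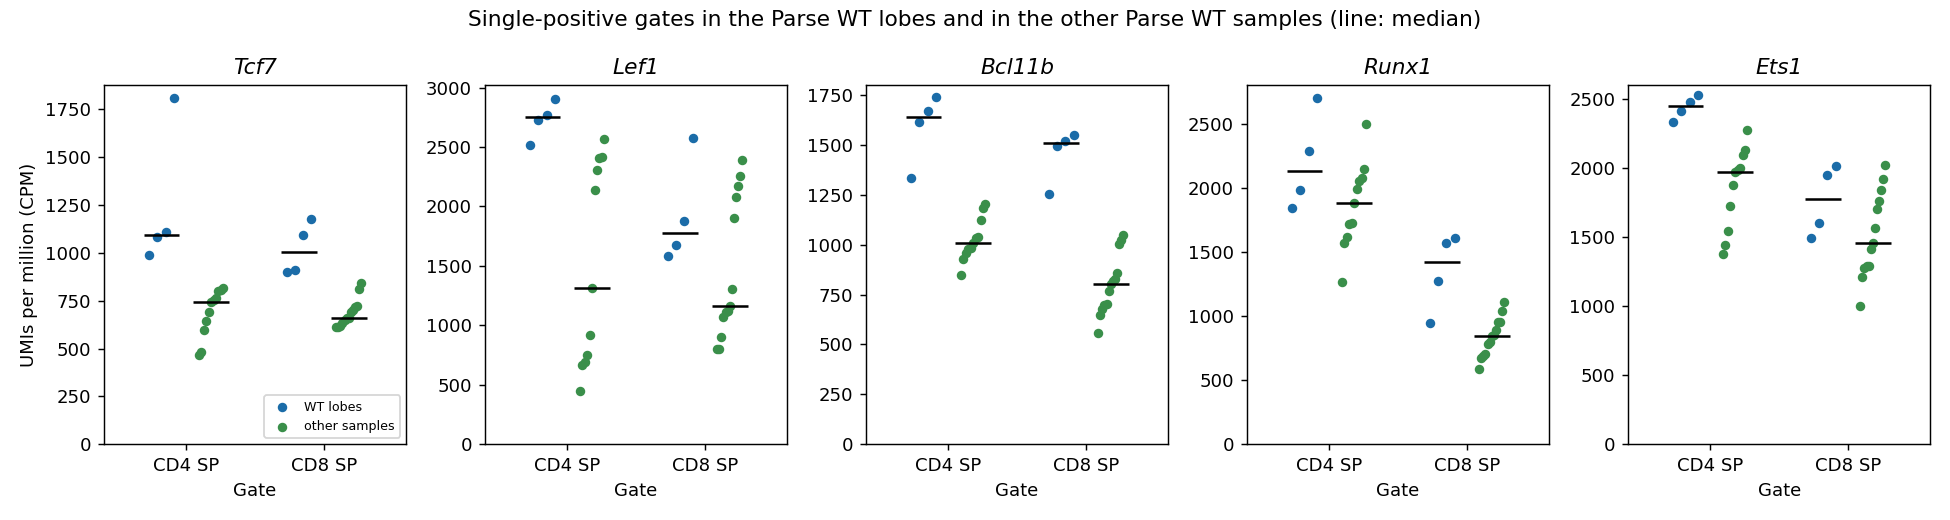
Level of the 5 factors (vertical axis, CPM from 0) in the CD4 SP and CD8 SP gates (horizontal axis), with blue points for the 4 WT lobes, green points for the other samples and lines at the medians. Bcl11b in the CD8 SP gate has a median of 1507 CPM in the lobes and 800 in the other samples, with no overlap.

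T cell genes were also read in lobe cells that should lack them, where free RNA and doublets cannot be told apart. Cells of the WT lobes in the B cell gate, 412 cells, had 573 CPM of Tcf7, 602 of Bcl11b and 328 of Lef1, while B cells of the other samples had 33.2, 43.4 and 53.7. The 66 cells of the Mini lobes in that gate had lower levels than those of the WT lobes, 249, 282 and 132 CPM. The WT lobe values of Tcf7, Bcl11b and Lef1 were 28.6%, 25.6% and 37.3% of those in DP-R cells of the WT lobes. Signal of this size in the WT lobes lies in the same direction as the difference between lobes and other samples for Tcf7 and Bcl11b, and its part in that difference was not tested. The same cells had 1492 CPM of Runx1 and 1207 of Ets1, against 1188 and 1075 in B cells of the other samples.

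With each cell thinned to 1000 UMIs, and shallower cells left out, the share of cells with a UMI was read with exact (Clopper-Pearson) 95% intervals for counting error. Tcf7 was found in 43.4% (38.1 to 48.8) of DN, 69.3% (68.5 to 70.2) of cycling, 79.6% (78.2 to 80.9) of DP-R and 58.2% (53.0 to 63.3) of CD4 SP cells of the 8 lobes. B cells of the lobes, which should lack it, gave 25% (20.4 to 30.1). Runx1 was found in 88.6% of DN and 57.5% of DP-S cells. It was also found in 54.9% of B cells of the lobes and 57.9% of B cells of the other samples. B cells thus cannot stand for cells that lack Runx1. Lef1 was found in 32.6% of DN, 52.3% of cycling, 47.1% of DP-R, 58.9% of DP-S, 78.1% of CD4 SP and 70.7% of CD8 SP cells. In B cells of the lobes the share for Lef1 was 17.0%. Without thinning the shares of Tcf7 were 78.7% in DN and 93.0% in DP-R cells. In the other samples Bcl11b was found in 54.8% (52.4 to 57.2) of CD4 T, 43.6% (41.1 to 46.1) of CD8 T, 3.7% (2.2 to 5.8) of NK and 3.5% (3.3 to 3.7) of B cells. The interval of the Bcl11b share in NK cells includes the share in B cells, so no expression is read from it. Tcf7 in NK cells, at 11.2% (8.5 to 14.4), lay above the 2.5% (2.4 to 2.7) of B cells.

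**Figure D5:**
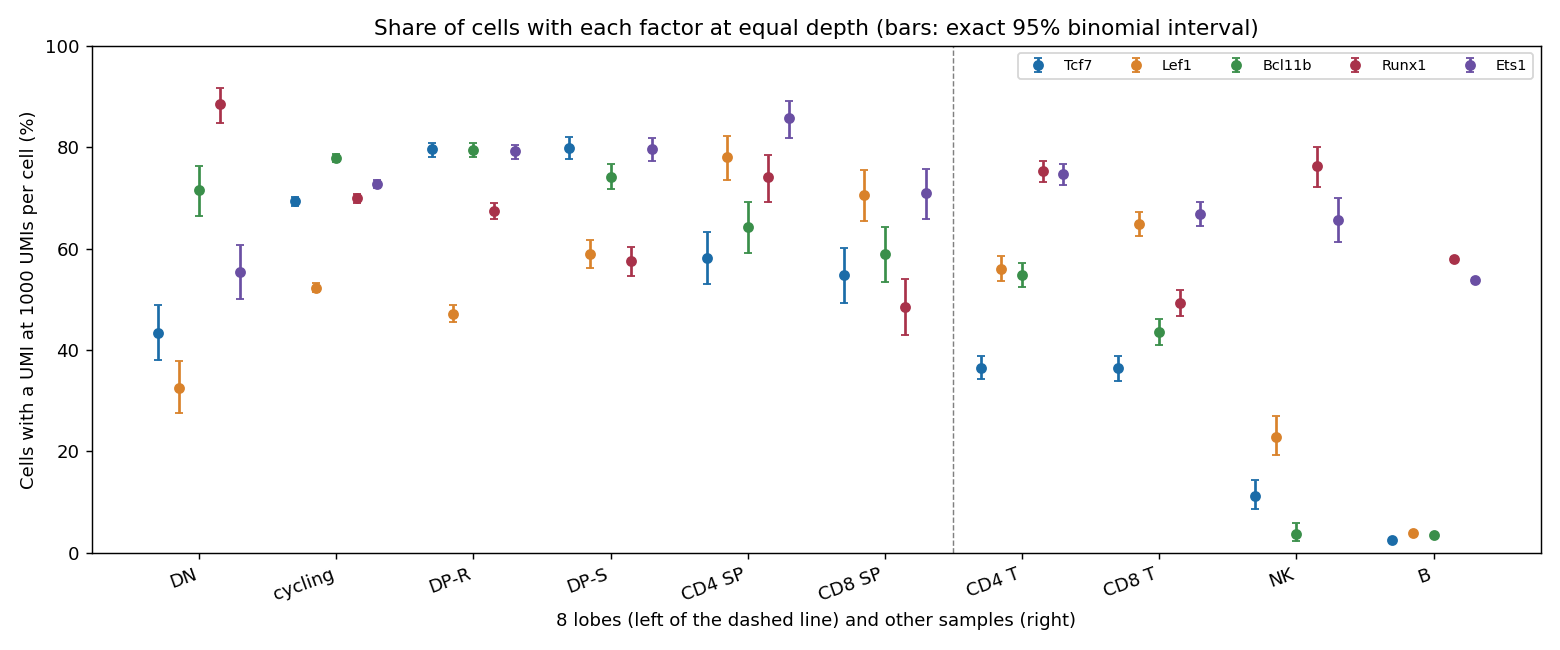
Share of cells with a UMI of each factor (vertical axis, percent) when every cell has 1000 UMIs, with exact 95% binomial bars, for the stages of the 8 lobes and for T, NK and B cells of the other samples (horizontal axis). Bcl11b drops from 43.6% of CD8 T cells to 3.7% of NK cells, while Runx1 is read in most cells of both NK (76.3%) and B (57.9%) classes.

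Over the 11 classes each gene had its own order of medians. Tcf7 was highest in DP-S and DP-R cells, Bcl11b in DP-R and cycling cells, Lef1 and Ets1 in CD4 SP cells and Runx1 in DN cells. The step from the highest to the lowest class was 125-fold for Tcf7, 115-fold for Lef1 and 86.8-fold for Bcl11b, all with myeloid cells lowest, 13.7-fold for Ets1 and 4.24-fold for Runx1, with CD8 T cells lowest. The classes come from unlike sets of samples, NK cells from 5 and CD4 T cells from 11, so the orders also carry differences between samples. Most neighbours in these orders overlapped between samples. The overlap of Lef1 in CD4 T and NK cells came from 1 sample, at 344 CPM, without an NK value, and in the 5 samples that had both, CD4 T cells lay at 1523 to 2338 CPM against 247 to 410. Those that did not were CD4 T and NK and then NK and B cells for Tcf7, NK and B cells for Lef1, CD8 T and NK cells for Bcl11b, DN and NK cells for Runx1 and B and myeloid cells for Ets1.

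Likeness of pattern was read over 10 classes, the 6 stages of the WT lobes and CD4 T, CD8 T, NK and B cells of the other samples, as Pearson's r of log2(CPM + 1) of pooled UMIs among 6814 genes. These classes share libraries and free RNA, and the values are descriptions. Tcf7 and Bcl11b followed each other (r = 0.943), and Lef1 had r = 0.879 with Tcf7 and 0.841 with Bcl11b. All of them were lowest in NK and B cells, and how far r rests on those classes was not tested. Between stages Lef1 did not always follow. All of them rose from DN to cycling cells. From cycling to DP-R cells the log2 change was -0.41 for Lef1 and 0.24 for Tcf7. Into the CD4 SP gate it was 0.40 for Lef1, -0.97 for Tcf7 and -0.55 for Bcl11b. Runx1 followed none of the others (between -0.213 with Ets1 and 0.167 with Bcl11b). The genes most like Tcf7 were Ramp1 (0.985), Trbc2 (0.982) and Abtb2 (0.974), and those most like Bcl11b were Trbc2 (0.983), Xlr4a (0.978) and Themis (0.972). Trbc2 is a constant part of the T cell receptor beta chain. Lef1 was closest to Emb (0.979), Bicdl1 (0.968) and Ubash3a (0.962), Ets1 to Itpkb (0.978), Sp4 (0.95) and Smad4 (0.943), and Runx1, less closely, to Pim1 (0.897) and Adipor2 (0.883).

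The genes differ in length, and whether their UMI counts grow with length was not tested, so levels are also given per kilobase. Without scaling by length, Bcl11b (2351 CPM) stood above Tcf7 (2002 CPM) in DP-R cells of the WT lobes. The members span from 30.6 kb (Tcf7) to 225 kb (Runx1), with 2.63 kb and 12 kb of exons. In DP-R cells of the WT lobes, levels per kilobase of exon were 763 CPM for Tcf7, 290 for Bcl11b, 234 for Ets1, 135 for Runx1 and 100 for Lef1. Per kilobase of gene span, a scale that fits reads from introns, they were 65.3, 25.2, 16.3, 7.22 and 7.72. Tcf7 stood first on both scales per kilobase, and between these Runx1 and Lef1 changed places. In DN cells Runx1 stood first per kilobase of exon (349 CPM against 273 for Tcf7) but not per kilobase of span (18.7 against 23.4).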

How the data were processed

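The authors deposited, for each Parse kit, UMI counts per cell and gene, made with split-pipe on an mm10 index and combined over sublibraries, with a cell table and a gene list. A further 9 columns of each of the 2 cell tables were not used, and the 10x libraries were not analysed here. The limits on cells were 500 and 25000 UMIs, and 15% of UMIs from mitochondrial genes. No doublet caller was run. The gates capped UMIs of other lineages without always forbidding them, and could not remove doublets of thymocytes with each other. UMIs were summed per sample and class, sums of under 20 cells were dropped, and ribosomal RNA genes were left out. Stages were tested with edgeR 4.0.16 (quasi-likelihood, TMM, filterByExpr, lobe as a block, 6 contrasts, Benjamini-Hochberg over the genes tested) in R 4.3.3, after a check on simulated data. SE is the log2 fold change over the root of F. DESeq2 1.42.0 was an alternative. Values in the other samples have no test. The members and lists were chosen with earlier results of these data known. Named are the members, the listed partners, progenitor factors and check genes, and the 3 genes most like each member among those with a mean of at least 20 CPM, of which some, like some gate genes, are not reported here. Python 3.11.15, numpy 2.4.6 and pandas 2.3.3 were used.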

Additional observations from a re-analysis of the deposited data

Results flagged for a closer look

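Values of the 4 lobes of a kit were searched for a lobe far from the other 3, by Dixon's ratio of the gap to the range, in 60 groups of member, stage and kit. Chance flags about 1 in 20 such groups, and 4 were found. Bcl11b in DN cells was at 1803 CPM in WT lobe 2 and between 1609 and 1642 in the other WT lobes (ratio 0.833). Lef1 in cycling cells was at 1252 CPM in WT lobe 1 and between 1089 and 1109 in the others (0.878). Tcf7 in CD4 SP cells was at 1810 CPM in WT lobe 3 and between 987 and 1107 in the others (0.855). Bcl11b in cycling cells was at 2632 CPM in Mini lobe 2-B and between 2419 and 2440 in the other Mini lobes (0.9).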

How the results depend on the processing

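Of the 30 changes between stages 21 were called, and 13 kept their call and direction under every alternative tried: Tcf7, Runx1 and Ets1 from DN to cycling cells, Tcf7 and Lef1 from cycling to DP-R cells, Lef1 from DP-R to DP-S cells, Tcf7, Bcl11b and Runx1 into the CD4 SP gate, Tcf7, Bcl11b and Ets1 into the CD8 SP gate, and Ets1 between CD8 SP and CD4 SP cells. Over all genes tested, the share called ran from 6.24% (CD8 SP minus CD4 SP) to 61.7% (DP-R minus cycling). The share of all genes that would keep a call under every alternative was not computed. Of 540 alternative values 479 kept direction and side of the threshold. The causes of the changes below were not tested.

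Ets1 in DP-S minus DP-R lost its call with DESeq2 size factors (0.13), no filter on low counts (0.041), no lobe block (0.14), WT lobes only (0.10), Mini lobes only (0.17), thinned cells (0.10), marker minimums raised by 1 (0.12), cells up to 10000 UMIs (0.14) and library sizes without the 20 most abundant genes (0.13). Runx1 in the same step lost it with no lobe block (-0.22), WT lobes only (-0.20), Mini lobes only (-0.27) and raised minimums (-0.25). Ets1 in DP-R minus cycling lost it with no lobe block (0.15), Mini lobes only (0.14) and raised minimums (0.12). Lef1 in CD8 SP minus CD4 SP lost it with no lobe block (-0.40), Mini lobes only (-0.22), raised minimums (-0.48) and DESeq2 (-0.37). In the Mini lobes only, Lef1 (0.22) and Bcl11b (0.22) in cycling minus DN, Lef1 in CD4 SP minus DP-S (0.14) and Runx1 in CD8 SP minus CD4 SP (-0.50) lost theirs, and with thinned cells Bcl11b in cycling minus DN (0.18).

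Calls were gained by Runx1 in DP-R minus cycling with DESeq2 size factors (-0.18), no filter (-0.15), thinned cells (-0.14) and cells up to 10000 UMIs (-0.18). No filter also gave calls for Bcl11b in DP-S minus DP-R (-0.19) and Runx1 in CD8 SP minus DP-S (-0.27), thinned cells for Tcf7 in DP-S minus DP-R (0.15), raised minimums for Ets1 in CD4 SP minus DP-S (0.33) and Runx1 in CD8 SP minus DP-S (-0.64), and DESeq2 for Ets1 in CD4 SP minus DP-S (0.11). Uncalled changes turned direction for Ets1 in CD4 SP minus DP-S with no filter (-0.0065), for Lef1 in CD8 SP minus DP-S with no filter (-0.10), no lobe block (-0.020) and Mini lobes only (-0.083), and for Tcf7 in CD8 SP minus CD4 SP with Mini lobes only (0.12) and raised minimums (0.14).

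With 1 lobe left out, the results whose call or direction changed ranged from 0.062 to 0.17 (Bcl11b, DP-R minus cycling), 0.10 to 0.15 (Ets1, DP-S minus DP-R), -0.46 to -0.31 (Lef1, CD8 SP minus CD4 SP), -0.021 to 0.13 (Lef1, CD8 SP minus DP-S), -0.23 to 0.0014 (Runx1, CD8 SP minus DP-S), -0.19 to -0.085 (Runx1, DP-R minus cycling), -0.28 to -0.19 (Runx1, DP-S minus DP-R) and -0.16 to 0.039 (Tcf7, CD8 SP minus CD4 SP). Raised minimums left few CD4 SP sums of 20 cells or more.

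In the other samples 69 of 80 alternative medians moved by less than 1 SD between samples. Raised minimums moved Lef1 in CD4 T cells to 1762 CPM, over 6 samples, and thinning moved Bcl11b in NK cells to 41.9. Library sizes without the 20 most abundant genes gave 1397 CPM of Bcl11b and 2362 of Ets1 in CD4 T cells, 1054 of Bcl11b, 1270 of Runx1 and 2061 of Ets1 in CD8 T cells, and 226 of Tcf7, 420 of Lef1, 3023 of Runx1 and 1641 of Ets1 in NK cells.

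For the replicate numbers of the labels, no paired analysis was possible because these numbers name sublibraries, which are pools of all samples of a kit, and these were not compared. The tests between stages are paired by lobe. Lobes are few and paired within mice, lobe cells that should lack T cell genes hold some of their UMIs, and single-positive sums rest on 22 to 78 cells, and changes of about 2 times the SE were not called in some contrasts.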

Other observations

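Among the 16 other samples, the Lef1 levels of CD4 T cells fell into separate clusters, with no sample between 590 and 1523 CPM. The values were 344, 429, 484, 590, 555 and 516 CPM in the samples named CVS_C_2, CVS_C_3, CVS_C_4, CVS_C_5, CVS_S_2 and CVS_S_3. They were 1789, 1720, 2338, 2212 and 1523 CPM in YD_C_1 to YD_C_5. In CD8 T cells Lef1 was at 1065, 365, 990, 1056, 787 and 440 CPM in CVS_C_3, CVS_C_4, CVS_C_5, CVS_S_2, CVS_S_3 and CVS_S_4, and at 1639, 1903, 2189, 2013 and 1796 in YD_C_1 to YD_C_5. For the other 4 members the ranges of the same samples overlapped in CD4 T cells, for example Tcf7 from 502 to 691 and from 587 to 899 CPM and Bcl11b from 1069 to 1223 and from 968 to 1308. The sources used here do not say what these names stand for, so no comparison was made.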
